A study of Homo sapiens with 18 samples.

Results

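The comparison described here set mature blood cells carrying a USB1 mutation against wild type (WT) blood cells at day 30 (D30) of a hematopoietic differentiation. Its members were chosen by their labels, genotype and day, and were 6 of the 18 RNA-seq libraries in the series, 3 from USB1 mutant and 3 from WT cells. Both genotypes came from H1, a line of human embryonic stem cells, differentiated in vitro for 30 days. The mutant cells carried a single-base frameshift deletion in USB1 made with CRISPR/Cas9 and a donor oligo that also held silent changes, in colonies picked by hand, and how many clones were used is not stated. WT cells were H1 without that deletion, so what sets an edited line apart from its parent cannot be told apart from the genotype. The sources do not state that the libraries of a genotype came from separate differentiations, and p-values therefore measure the spread between these samples.

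USB1 is an exonuclease that trims the 3′ end of U6 small nuclear RNA and of other small RNAs. Its loss in people causes poikiloderma with neutropenia, in which neutrophils are scarce. In culture, a blood differentiation gives several lineages side by side. Erythroid cells fill with hemoglobin, neutrophils store enzymes in azurophil, specific and gelatinase granules, macrophages carry scavenger receptors, and mast cells store tryptases. Each lineage has its own genes, so a bulk library reads out how much RNA each lineage gave, and fewer cells of a type and less RNA per cell cannot be told apart in it.

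Total counts were 10458324, 12312694 and 4125102 in mutants 1, 2 and 3, against 7991321, 19368903 and 10009975 in WT 1, 2 and 3. Mutant 3 was the shallowest library. The labelled cell type was checked against marker genes in TPM, a unit corrected for transcript length. Summed erythroid markers lay between 142738 and 190431 TPM in mutant libraries, against 43252 to 53399 TPM in WT libraries, and eosinophil markers between 2863 and 6976 TPM, against 1828 to 7502 TPM. Neutrophil markers summed to 87.3 to 273 TPM in mutants and 653 to 1039 TPM in WT, and monocyte and macrophage markers to 508 to 991 TPM and 1256 to 2006 TPM. The 3 lymphoid markers reached at most 1.21 TPM in mutants and 0.888 TPM in WT, and the B cell marker MS4A1 was at 0 in all 6 libraries. Mast cell markers summed to 179.9 to 518.6 TPM in mutants and 32.7 to 69.6 TPM in WT. Megakaryocyte markers summed to 41.3 to 87.3 TPM in mutants and 15.1 to 37.6 TPM in WT. Nearly all of this sum was ITGA2B, which averaged 67.1 TPM in mutants and 27.5 TPM in WT. PF4 averaged 2.33 TPM in mutants and 0.602 TPM in WT, and GP9 went the other way, at 0.139 and 0.743 TPM. The cells were thus a mixture of erythroid, granulocytic, monocytic and mast cells, with almost no RNA of the 3 lymphoid markers. The wider lymphoid list was not absent: IL7R averaged 14.3 TPM in mutants and 35.7 TPM in WT. Of 7 tested genes of that list, 2 were higher and 1 lower in mutants.

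Across all genes, 14263 were tested and 2933 (20.6%) differed between the genotypes at an adjusted p under 0.1, the threshold used throughout (edgeR's quasi-likelihood test with Benjamini-Hochberg adjustment). Of these, 1543 genes (10.8%) were higher and 1390 (9.75%) lower in mutant cells. Beyond 2-fold, 788 (5.52%) were higher and 465 (3.26%) lower. The values of the genotypes did not overlap for 5101 genes (35.8%). The median gene differed by -0.01 on the log2 scale. Levels below are counts scaled to library size (CPM) in mutants 1, 2 and 3 and then in WT 1, 2 and 3, and parentheses hold the log2 of the mutant to WT ratio ± the standard error of that value, then the adjusted p. The total of called genes leaned on single WT libraries: it was 1484 without WT 2 and 1452 without WT 3, and 1779 without WT 1. Of 156 called genes that were compared one by one across settings, 111 kept their call under every other scaling, filter, tool, block or left-out library. Most of these genes were picked for large differences or small p-values in the same data, so their share does not describe called genes in general.

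Globin transcripts, which code for the chains of hemoglobin, took 8.83%, 5.41% and 6.69% of the counts in mutants 1, 2 and 3, against 1.73%, 1.31% and 1.65% in WT 1, 2 and 3. Every mutant library lay above every WT library, and mutant 1 was the highest. The mean was 6.98% ± 1.73 in mutant and 1.56% ± 0.224 in WT cells (SD, n = 3 each), a 4.47-fold difference. The exact two-sided permutation test gave p = 0.10, which is the smallest value that 3 against 3 libraries allow. As a share of TPM, the globins took 23.0% ± 4.42 in mutant and 6.37% ± 0.774 in WT cells (SD, n = 3 each), a 3.60-fold difference with no overlap. These shares cover the 10 listed globin genes. ENSG00000284931, a gene without a symbol, is not in that list. It ranked 5 by TPM in mutants 1 and 2, at 27564 and 24330 TPM. Whether its reads belong with the globins was not tested.

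**Figure D1:**
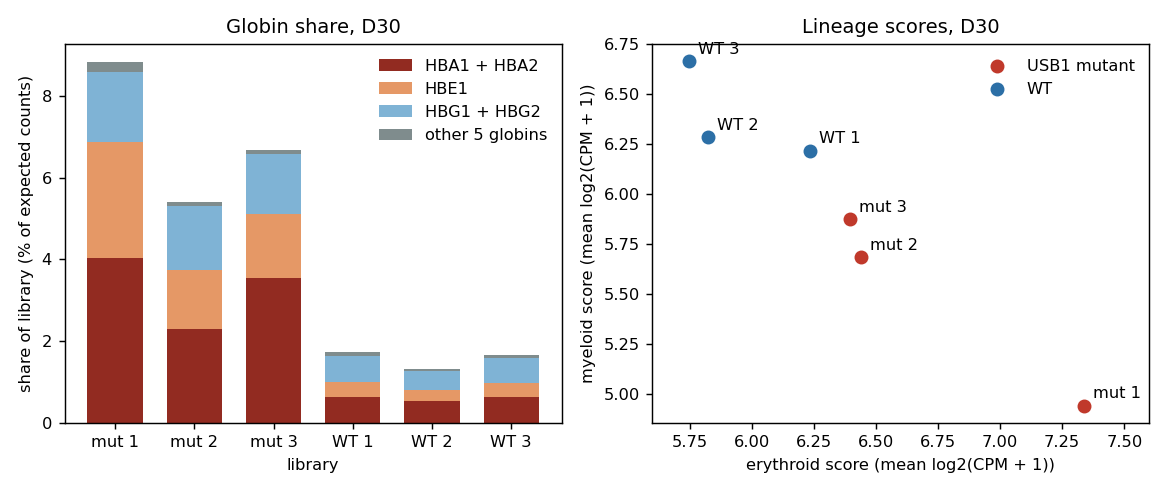
Left, the share of each D30 library taken by globin transcripts (percent of expected counts, bars stacked by globin, mutants left of WT). Right, the erythroid and the myeloid score of each library, both in mean log2(CPM + 1), where the 3 mutants lie at higher erythroid and lower myeloid scores than the 3 WT libraries and mutant 1 lies farthest out.

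All 10 globin genes were higher in mutant cells, with a median log2 difference of 1.71, beside -0.01 over all genes, but 7 were called without WT 2 and 6 without WT 3. HBE1, the embryonic beta-type chain, was at 28693, 14209 and 16571 CPM in mutants, against 3526, 2522 and 3423 CPM in WT (2.65 ± 0.31, adjusted p = 0.0026). The adult and fetal alpha chain genes HBA1 and HBA2, near-identical copies whose reads cannot be assigned with certainty, together took 4.04%, 2.30% and 3.55% of the mutant libraries, against 0.634%, 0.543% and 0.640% of WT. The fetal gamma chain genes HBG1 and HBG2, also copies, together took 1.72%, 1.56% and 1.47%, against 0.637%, 0.454% and 0.621%. No globin pair listed here overlapped between genotypes. HBQ1, a theta chain, had 103, 64.1 and 94.8 CPM in mutants and 14.4, 9.23 and 16.6 CPM in WT (2.71 ± 0.27, adjusted p = 0.0017). Embryonic HBZ, the zeta chain, did overlap, with 2082, 558 and 696 CPM in mutants and 591, 338 and 331 CPM in WT (1.41 ± 0.48, adjusted p = 0.090), and mutant 1 was far above the other libraries. HBZ was not called by DESeq2 (adjusted p = 0.18), limma-voom (0.12) or with lengths as offsets (0.11), nor without any 1 of WT 1, WT 2, WT 3 and mutant 1. The adult beta chain HBB stayed far below HBE1, at 276, 369 and 381 CPM in mutants and 219, 89.8 and 171 CPM in WT (1.10 ± 0.30, adjusted p = 0.045).

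The make-up of the globin pool differed as well. The beta-type transcripts counted here were HBE1, HBG1, HBG2, HBB and HBD, without ENSG00000284931. Among beta-type transcripts, HBE1 took 61.8%, 47.6% and 50.6% in mutants, against 35.7%, 36.0% and 34.5% in WT. The fetal genes HBG1 and HBG2 took 37.6%, 51.2% and 48.2% in mutants, against 62.1%, 62.6% and 63.7% in WT. The embryonic share was thus higher and the fetal share lower in every mutant library. Adult HBB and HBD together made up 1.04% ± 0.359 in mutant and 1.79% ± 0.440 in WT cells (SD, n = 3 each), with no overlap. Among alpha-type transcripts the direction was the opposite, since embryonic HBZ took 4.83%, 2.42% and 1.80% in mutants, against 8.84%, 6.06% and 4.83% in WT. For that share mutant 1 and WT 3 lay next to each other, and on the TPM scale they overlapped, with an exact permutation p of 0.20 there and of 0.10 for the other shares.

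Other erythroid genes moved the same way by less. Of 61 tested members of the 3 erythroid lists other than globins, 30 were higher and 2 lower, with a median of 0.98. In the red cell membrane and skeleton list, 13 of 23 were higher and 1 lower (median 1.34). DMTN, which links spectrin to actin, had 754, 364 and 468 CPM in mutants and 127, 115 and 119 CPM in WT (2.14 ± 0.26, adjusted p = 0.0030). XK, a blood group protein of the membrane, had 298, 149 and 196 CPM in mutants and 59.6, 42.3 and 43.8 CPM in WT (2.15 ± 0.27, adjusted p = 0.0033). Both genes were without overlap and highest in mutant 1. The spectrin genes themselves overlapped: SPTB, the beta chain, had 826, 208 and 156 CPM in mutants and 218, 179 and 102 CPM in WT (1.26 ± 0.58, adjusted p = 0.19), so that only mutant 1 stood above WT. SPTB was called higher with no count filter (adjusted p = 0.093) and in the fit over 18 libraries (0.039). Without WT 2 or without WT 3 the membrane list kept 7 calls each.

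Heme synthesis and red cell enzymes held 7 higher and 1 lower of 21 (median 0.79), with 4 higher without WT 2 or without WT 3. FECH, which inserts iron into heme, had 525, 329.9 and 328 CPM in mutants and 197, 143 and 154 CPM in WT (1.26 ± 0.22, adjusted p = 0.0104). ALAS2, the erythroid enzyme that begins heme synthesis, had 1064, 566 and 482 CPM in mutants and 375, 198 and 248 CPM in WT (1.36 ± 0.34, adjusted p = 0.033). AHSP, the chaperone of free alpha globin, had 178, 89.6 and 138 CPM in mutants and 70.4, 29.8 and 40.5 CPM in WT (1.54 ± 0.34, adjusted p = 0.023). None of these 3 genes overlapped, and each was highest in mutant 1, while ALAS2 lost its call without WT 2 or without WT 3 (adjusted p = 0.11 each). Of the erythroid transcription factors, 10 of 17 were higher and 0 lower (median 0.68), with 6 higher without any 1 of the WT libraries. GATA1, the master regulator of red cell genes, had 131, 84.2 and 97.7 CPM in mutants and 40.1, 31.6 and 39.7 CPM in WT (1.49 ± 0.19, adjusted p = 0.0039). Its partner TAL1 (1.52 ± 0.29, adjusted p = 0.012) and KLF1, an activator of globin genes (1.40 ± 0.29, adjusted p = 0.019), were higher by a similar amount, and neither overlapped.

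Neutrophil genes were lower. Over the 3 neutrophil lists, 25 of 51 tested members were lower and 2 higher, with a median of -1.18. In the azurophil list, 8 of 15 were lower and 1 was higher. CFD, complement factor D, had 10.7, 13.7 and 16.6 CPM in mutants and 74.5, 72.4 and 100.03 CPM in WT (-2.61 ± 0.21, adjusted p = 0.0013). MPO, the peroxidase of this granule, spread widely within both genotypes, at 6.12, 27.7 and 90.7 CPM in mutants and 323, 71.2 and 414 CPM in WT (-2.76 ± 0.89, adjusted p = 0.076), and mutant 3 overlapped WT 2. The MPO call was lost without WT 1 (adjusted p = 0.16), WT 3 (0.20) or mutant 2 (0.18). ELANE, neutrophil elastase, did not pass the count filter, with 0, 0.446 and 0.406 TPM in mutants and 34.7, 0.763 and 10.02 TPM in WT. The member that was higher was CTSG, cathepsin G, which mast cells also store (2.13 ± 0.69, adjusted p = 0.078), a call that DESeq2 (0.101), limma-voom (0.12), lengths as offsets (0.1002) and every left-out library but mutant 1 removed. The azurophil count depended on single libraries: 4 members stayed lower without WT 1 or without mutant 1, 2 without mutant 2 and 1 without WT 3.

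Specific and gelatinase granule genes were lower in 9 of 16 cases and higher in 0 (median -1.75), with 7 to 10 lower when any 1 library was left out. MMP9, the gelatinase, had 259.7, 191 and 179.5 CPM in mutants and 969, 953 and 1109 CPM in WT (-2.26 ± 0.19, adjusted p = 0.0013). LTF, lactoferrin, had 0.972, 5.10 and 3.90 CPM in mutants and 38.3, 18.4 and 62.6 CPM in WT (-3.59 ± 0.60, adjusted p = 0.0081). OLFM4, a glycoprotein of specific granules, was at 0 in all 3 mutants and at 5.54, 3.59 and 6.81 CPM in WT, at least 47.4-fold lower in mutants when the group at 0 is set to a total of 3 counts. These genes were without overlap. CHI3L1, a member of this list on the long arm of chromosome 1, had 452, 501 and 544 CPM in mutants and 2394, 1884 and 2589 CPM in WT (-2.20 ± 0.19, adjusted p = 0.0013). In WT cells CHI3L1 and MMP9 averaged 2620 and 666 TPM, against 23.1 TPM for LTF and 2.80 TPM for OLFM4. Which cells of the mixture gave the CHI3L1 and MMP9 transcripts was not tested. The ratio of summed specific and gelatinase to azurophil granule counts was 0.850 ± 0.426 in mutant and 1.28 ± 0.338 in WT cells (SD, n = 3 each), which overlapped (exact permutation p = 0.30).

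Maturation and surface genes of neutrophils were lower in 8 of 20 cases and higher in 1 (median -0.71), but only 2 stayed lower without WT 3, 5 without WT 2 and 6 without mutant 1 or without mutant 3. S100A8 and S100A9, which form calprotectin, stood far higher in WT 3 than in the other WT libraries. S100A8 had 70.8, 327 and 337 CPM in mutants and 752, 863 and 2183 CPM in WT (-2.37 ± 0.60, adjusted p = 0.037), and S100A9 had 158, 598 and 537 CPM in mutants and 1464, 1393 and 3650 CPM in WT (-2.33 ± 0.54, adjusted p = 0.026). The receptor of granulocyte colony-stimulating factor, CSF3R, was lower too (-1.59 ± 0.42, adjusted p = 0.041). Without WT 3 neither S100A8 (adjusted p = 0.12) nor CSF3R (0.13) was called, and CSF3R was not without WT 2 (0.105). GFI1, a repressor needed for neutrophil formation, was the member that was higher (1.03 ± 0.32, adjusted p = 0.069), with overlap, and lost its call without WT 1, WT 2, mutant 2 or mutant 3 (adjusted p from 0.13 to 0.19). Of the myeloid transcription factors, CEBPA fell to 116, 165 and 127 CPM in mutants, against 233, 218 and 206 CPM in WT (-0.68 ± 0.16, adjusted p = 0.030). CEBPE, which drives specific granules, had 17.98, 33.1 and 36.6 CPM in mutants and 20.8, 53.5 and 66.2 CPM in WT and was not called (adjusted p = 0.30), but was without WT 1 (0.077). SPI1 was not called either (-0.44 ± 0.18, adjusted p = 0.15), but was by DESeq2 (0.098) and without mutant 3 (0.085). Nor were RUNX1 (-0.01 ± 0.13, adjusted p = 0.97) and RUNX2 (-0.04 ± 0.38, adjusted p = 0.96).

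Monocyte and macrophage genes were lower in 19 of 35 cases and higher in 0 (median -0.88), and 14 to 18 were lower when any 1 library was left out. MSR1, a scavenger receptor, had 8.55, 16.6 and 7.53 CPM in mutants and 84.9, 96.6 and 108 CPM in WT (-3.10 ± 0.29, adjusted p = 0.0014). TREM2, a lipid-sensing receptor, had 109, 154 and 115 CPM in mutants and 319.9, 396 and 387 CPM in WT (-1.54 ± 0.18, adjusted p = 0.0027). LPL, lipoprotein lipase, had 96.1, 213 and 111 CPM in mutants and 532, 535 and 501 CPM in WT (-1.90 ± 0.28, adjusted p = 0.0060). WT libraries lay close together for these 3 genes and none overlapped. CD163, the receptor for hemoglobin bound to haptoglobin, was also lower (-1.54 ± 0.33, adjusted p = 0.021). CD14, the monocyte co-receptor for lipopolysaccharide, had 88.5, 258 and 159 CPM in mutants and 331, 443 and 221 CPM in WT, overlapped and was not called (adjusted p = 0.13). CD14 was called lower by DESeq2 (adjusted p = 0.038), with no count filter (0.055), in the fit over 18 libraries (0.037) and without mutant 2 (0.046). In the list of MHC class II and antigen presentation genes, 0 of 14 were called, with CD86 at an adjusted p of 0.15 and CD80 at 0.106, and CD80 was called by DESeq2 (adjusted p = 0.085), limma-voom (0.071) and 4 other scalings or filters, and without WT 1 (0.043).

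**Figure D2:**
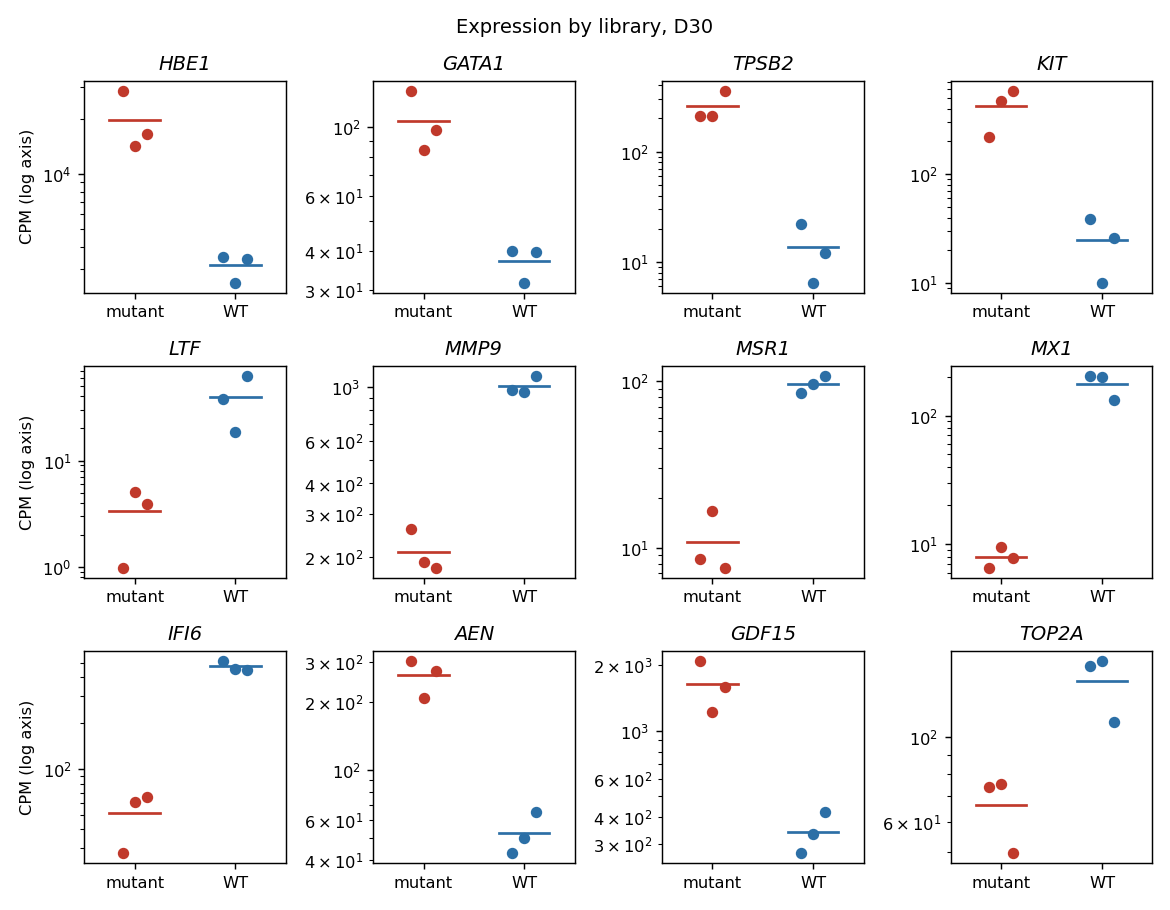
CPM of 12 genes in each D30 library on logarithmic axes, with a line at the mean of each genotype (mutant left, WT right, 3 libraries each). HBE1, GATA1, TPSB2, KIT, AEN and GDF15 lie higher in all 3 mutants, and LTF, MMP9, MSR1, MX1, IFI6 and TOP2A lie lower, with no overlap in any panel.

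Mast cell genes had the highest median of the blood lineage lists. Of 15 tested, 11 were higher and 0 lower, with a median of 2.13, and 9 to 11 were higher with any 1 library left out. The list shares CTSG, whose value is the median, with the azurophil list, and IL1RL1 with the eosinophil list. TPSB2, a tryptase, had 209, 212 and 358 CPM in mutants and 22.3, 6.44 and 12.1 CPM in WT (4.29 ± 0.45, adjusted p = 0.0020). TPSAB1 (4.04 ± 0.60) and TPSD1 (3.96 ± 0.57) are near-identical copies of it, so the 3 are not separate readings. KIT, the receptor for stem cell factor that mast cells keep, had 219, 468 and 584 CPM in mutants and 39.1, 10.03 and 25.7 CPM in WT (4.11 ± 0.53, adjusted p = 0.0039). GATA2, which maintains mast cell and progenitor genes, had 193, 190.4 and 305 CPM in mutants and 59.9, 51.5 and 54.7 CPM in WT (2.05 ± 0.21, adjusted p = 0.0019). SLC18A2, the transporter that loads histamine into granules, had 64.4, 172 and 194 CPM in mutants and 24.6, 12.7 and 18.6 CPM in WT (2.96 ± 0.42, adjusted p = 0.0048). CPA3, the mast cell carboxypeptidase, had 44.99, 194 and 258 CPM in mutants and 33.3, 22.8 and 40.1 CPM in WT (2.37 ± 0.54, adjusted p = 0.025). Mutant 1, the most erythroid library, was the lowest mutant for KIT, SLC18A2 and CPA3. The IgE receptor chains were not called, with MS4A2 at 0.39 ± 0.28 (adjusted p = 0.40) and FCER1A at -1.41 ± 0.84 (adjusted p = 0.31).

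Eosinophil granule genes were not called. PRG2, the major basic protein, had 1422, 2093 and 3341 CPM in mutants and 518, 2806 and 2465 CPM in WT (0.24 ± 0.55, adjusted p = 0.81), and EPX, the peroxidase, was at -0.52 ± 0.57 (adjusted p = 0.59). WT 1 was the lowest library for both. In the eosinophil list 3 of 12 were higher and 0 lower (median 0.33), and these were GATA1, SIGLEC8, a receptor of eosinophils and mast cells that lost its call without WT 1, WT 2, mutant 2 or mutant 3 (adjusted p from 0.11 to 0.19), and IL1RL1, the IL-33 receptor that mast cells share (2.16 ± 0.34, adjusted p = 0.0067). The ratio of eosinophil to neutrophil granule counts was 1.90, 2.18 and 2.61 in mutants, against 0.182, 1.41 and 0.791 in WT, without overlap (exact permutation p = 0.10). In the megakaryocyte and platelet list 2 of 13 were higher and 4 lower, beside 10.8% higher and 9.75% lower over all genes. ITGA2B, a platelet integrin chain, was higher (1.39 ± 0.41, adjusted p = 0.059, from 0.12 to 0.16 without WT 1, WT 2, mutant 2 or mutant 3), and RAB27B, which moves granules in platelets and mast cells, was higher by 4.10 ± 0.57 (adjusted p = 0.0047). VWF, von Willebrand factor, was lower (-1.76 ± 0.29, adjusted p = 0.0076), as was F13A1, a clotting factor that macrophages also make (-2.30 ± 0.57, adjusted p = 0.033).

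The letters AGATAA, to which GATA factors bind, were looked for on both strands of RefSeq promoters (GRCh38.p14, 250 bases before to 50 after the start). They stood in 10.5% of 27305 promoters and in 5.36% of those of genes tested here. Among genes higher in mutants and present in the promoter table, they stood in 4 of 9 of the membrane list, where RHD and RHCE are copies of each other, in 1 of 4 of the heme list, 2 of 8 of the erythroid factors and 1 of 8 of the mast cell list. They also stood in 2 of 14 promoters of interferon-stimulated genes that were lower, in 1 of 13 of p53 targets that were higher, and in 1 of 2 of globins. The stretches of 3 genes are printed to show this element before a factor, a heme enzyme and a mast cell gene described above, with the match in capitals (TTATCT is the same element on the other strand).
TAL1: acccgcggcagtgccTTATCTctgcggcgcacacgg
ALAS2: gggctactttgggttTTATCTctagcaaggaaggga
CPA3: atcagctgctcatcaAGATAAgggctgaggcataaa
They lie at chr1:47232350-47232385 (minus strand), chrX:55031084-55031119 (minus strand) and chr3:148865236-148865271 (plus strand), with the match beginning 35, 127 and 45 bases before the start. A match describes the letters and not binding.

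Each library was given a balance score of erythroid against myeloid RNA: the mean log2(CPM + 1) over the 3 erythroid lists without globins, minus that over the neutrophil, eosinophil and monocyte lists. The score was 2.40, 0.76 and 0.52 in mutants 1, 2 and 3, against 0.02, -0.46 and -0.92 in WT 1, 2 and 3, without overlap. Adding it to the fit asks which genotype differences exceed what goes with the balance. The score and the genotype share much of their variation, and the variance of the genotype term grew 2.67 times. With it, 937 genes (6.57%) were called, 592 (4.15%) higher and 345 (2.42%) lower. Of the 2933 genes called without it, 665 kept their call and direction, which is 4.66% of all genes tested, with 460 (3.23%) higher and 205 (1.44%) lower. Genes that make up the score are among the 665. Outside the 14 blood lineage lists, 625 of 14040 genes (4.45%) were called in both fits, against 2824 (20.1%) by genotype alone. The globin share itself could not be separated from the genotype: with its logarithm in the fit the variance of the genotype term grew 20.96 times, and edgeR called 0 genes, with 398 at an unadjusted p under 0.05.

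What was left differed by group. Of the lists that make up the score, the erythroid, neutrophil and monocyte lists lost most of their calls and the eosinophil list lost 0 of 3. The score is built from the mean levels of these same genes, so lost calls and turned signs within these lists are partly built in. Their counts therefore do not test what remains. With the score in the fit, 4 membrane genes were higher and 4 lower, 0 heme genes were higher and 4 lower, and 2 erythroid factors were higher and 1 lower. Of the globins, which are not in the score, 6 of 10 stayed higher, among them HBE1 (1.89, adjusted p = 0.013), HBA2 (2.35, adjusted p = 0.0102) and HBQ1 (2.50, adjusted p = 0.0101), while HBZ had -0.37 (adjusted p = 0.54). Neutrophil maturation genes lost all 8 calls, with S100A8 at -0.29 (adjusted p = 0.66) and CSF3R at -0.13 (adjusted p = 0.80). Of the genes in the neutrophil granule lists, MMP9 (-2.61, adjusted p = 0.0011), CHI3L1 (-2.00, adjusted p = 0.0049) and CFD (-2.07, adjusted p = 0.0039) stayed lower. Of the macrophage genes 8 stayed lower, MSR1 (-2.55, adjusted p = 0.010) and TREM2 (-1.25, adjusted p = 0.030) among them. All 11 mast cell calls were kept, with KIT at 4.77 (adjusted p = 0.0057) and GATA2 at 2.32 (adjusted p = 0.0034). CTSG and IL1RL1 are among the 11 and also sit in lists of the score. In the eosinophil list, which is part of the score, 7 genes were higher, among them all 3 called without it. Interferon-stimulated genes kept 17 of 20 calls, p53 targets 13 of 16 and mitosis genes 6 of 12.

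**Figure D3:**
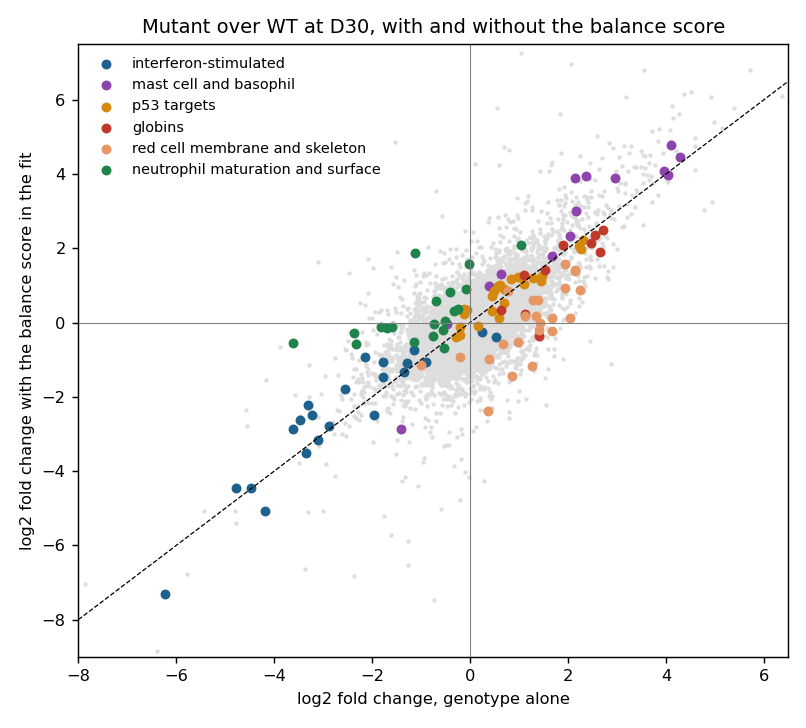
Log2 fold change of mutant over WT for every gene tested, from genotype alone (horizontal) and with the erythroid against myeloid balance score in the fit (vertical), with 6 lists in colour and a dashed line of equal values. Interferon-stimulated and p53 genes lie near the line, red cell membrane genes lie below it, and neutrophil maturation genes lie closer to 0 on the vertical axis. The median of the mast cell genes is 2.13 by genotype alone and 3.01 with the score. The red cell membrane and neutrophil maturation lists are part of the score.

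Interferon-stimulated genes, which cells switch on when interferon binds its receptor, were lower almost throughout the list. Of 22 tested, 20 were lower and 0 higher in mutant cells, with a median of -2.72 beside -0.01 over all genes, and 20 were lower whichever library was left out. MX1, a GTPase that blocks viral replication, had 6.51, 9.55 and 7.79 CPM in mutants and 204, 197 and 131 CPM in WT (-4.47 ± 0.24, adjusted p = 0.00037). IFI6, an interferon-induced membrane protein, had 27.9, 60.6 and 65.5 CPM in mutants and 514, 458 and 451 CPM in WT (-3.22 ± 0.30, adjusted p = 0.0015). OAS2, which makes the activator of RNase L, had 0.0972, 0.557 and 0.260 CPM in mutants and 35.9, 29.0 and 12.6 CPM in WT (-6.23 ± 0.60, adjusted p = 0.0016). No library of one genotype reached the range of the other for any of these genes. OAS3, of the same family, had 19.3, 30.4 and 18.4 CPM in mutants and 242, 219 and 137 CPM in WT (-3.11 ± 0.28, adjusted p = 0.0013). EPSTI1 (-3.35 ± 0.30, adjusted p = 0.0013), MX2 (-3.61 ± 0.35, adjusted p = 0.0016) and IFIT1, which binds foreign RNA (-3.31 ± 0.48, adjusted p = 0.0052), moved alike. STAT2, a signal transducer of the interferon receptor, was lower by less (-0.89 ± 0.14, adjusted p = 0.0068). RSAD2 had 132, 64.1 and 55.6 CPM in mutants and 52.0, 55.4 and 68.3 CPM in WT (0.53 ± 0.30, adjusted p = 0.29), and its neighbour CMPK2 was at 0.23 ± 0.22 (adjusted p = 0.52). The score of the monocyte and macrophage list moved with this result, at 6.76 ± 0.308 in mutant and 7.62 ± 0.124 in WT cells (mean log2(CPM + 1), SD, n = 3 each). Its part in the result was not tested.

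The core of the interferon-stimulated response element, read here as GAAA, any 2 bases and GAAA again, was searched on both strands of the same promoters. It stood in 3.65% of 27305 promoters and in 2.91% of those of genes tested, and in 10 of the 14 promoters that matched the 20 lower genes. These genes were listed as interferon-stimulated, so a high share goes with how the list was chosen. It says nothing about the genotype, and a match describes the letters and not binding. The stretches nearest the start are printed for 4 of the genes described above, with matches in capitals (in IFIT1 the element reads on the opposite strand).
IFI6: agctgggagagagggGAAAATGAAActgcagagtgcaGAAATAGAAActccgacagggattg
IFIT1: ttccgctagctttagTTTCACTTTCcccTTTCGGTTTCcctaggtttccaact
OAS3: cggagagccgggcggGAAAACGAAAcc
EPSTI1: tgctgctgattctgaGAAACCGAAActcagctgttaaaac
They lie at chr1:27672261-27672322 (minus strand), chr10:89392492-89392544 (plus strand), chr12:112938447-112938473 (plus strand) and chr13:42992267-42992306 (minus strand) of GRCh38.p14. The match nearest the start begins 93, 103, 12 and 50 bases before it.

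**Figure D4:**
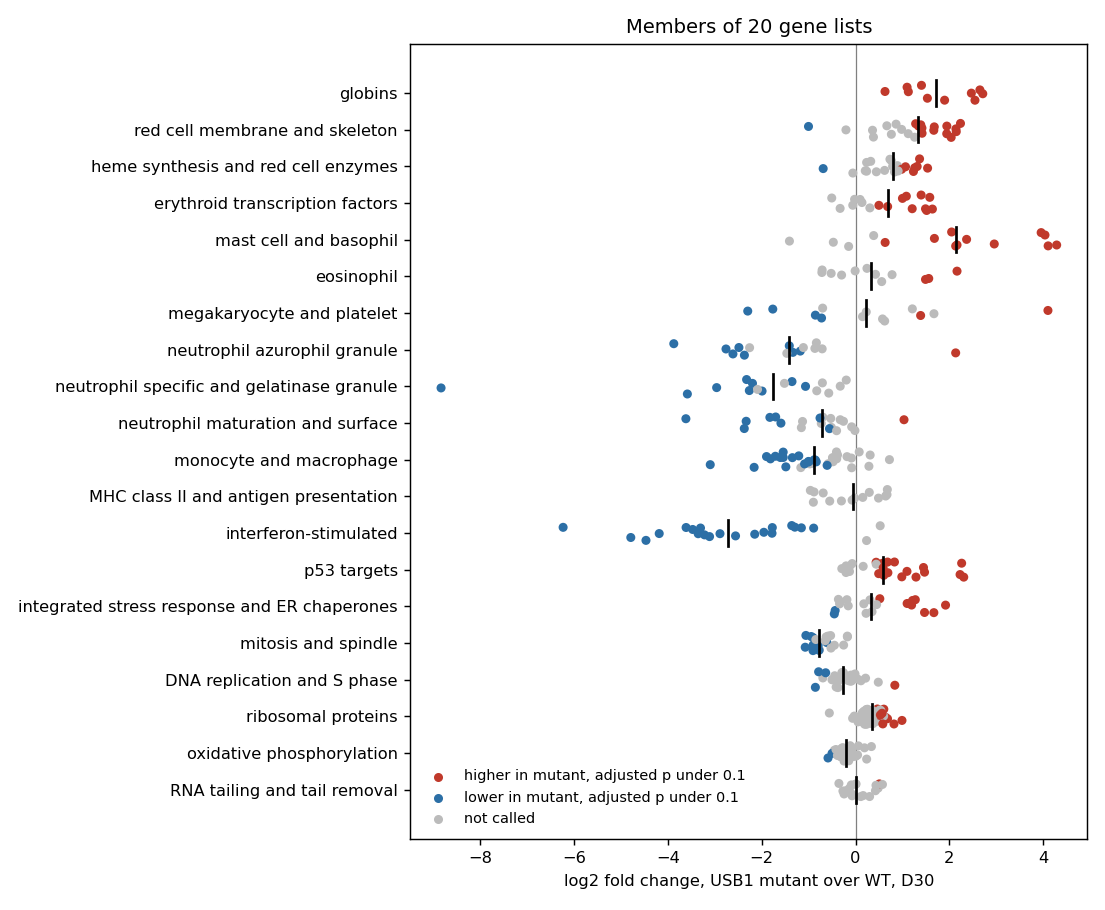
Log2 fold change of mutant over WT at D30 for each tested member of 20 gene lists (points, coloured by call at an adjusted p under 0.1) with the median of each list as a black line. Interferon-stimulated genes lie far to the left with a median of -2.72 and mast cell genes to the right with a median of 2.13. The leftmost point is OLFM4, at 0 in all mutants, whose fitted value is not a bound.

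Targets of the tumour suppressor p53, which halts or kills damaged cells, were higher in 16 of 24 cases and lower in 0 (median 0.59). AEN, an apoptosis-enhancing nuclease, had 303, 208 and 273 CPM in mutants and 42.9, 50.1 and 65.5 CPM in WT (2.31 ± 0.21, adjusted p = 0.0014). GDF15, a secreted stress cytokine, had 2098, 1224 and 1583 CPM in mutants and 271, 334 and 418 CPM in WT (2.26 ± 0.25, adjusted p = 0.0022). BBC3, which codes for the death activator PUMA, had 217, 112 and 182 CPM in mutants and 24.8, 35.8 and 48.2 CPM in WT (2.23 ± 0.30, adjusted p = 0.0042). All 3 were clear of overlap by at least 2-fold between nearest libraries of the genotypes. MDM2, the ligase that degrades p53, was at 354, 339 and 310.2 CPM in mutants and 150.1, 147 and 172 CPM in WT (1.10 ± 0.14, adjusted p = 0.0037), and CDKN1A, the cell cycle inhibitor p21, at 495, 501 and 544 CPM in mutants and 211, 253 and 314 CPM in WT (0.99 ± 0.18, adjusted p = 0.0104). BAX, a pore-forming death protein, was higher (1.29 ± 0.19, adjusted p = 0.0055). TP53I3 was not called (-0.29 ± 0.14, adjusted p = 0.22). With 1 library left out, 10 to 14 members stayed higher, the lowest without WT 2 and 11 without WT 1. Of the BCL2 family 6 of 18 were higher and 3 lower, beside 10.8% higher and 9.75% lower over all genes, with BBC3 and BAX among the higher.

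In the list of integrated stress response genes and ER chaperones, 8 of 20 were higher and 2 lower (median 0.33). ATF4, which is translated when eIF2 is phosphorylated, had 570.2, 456 and 679 CPM in mutants and 222, 254 and 268 CPM in WT (1.19 ± 0.18, adjusted p = 0.0064). Its targets TRIB3, a pseudokinase, at 644, 613 and 833 CPM in mutants and 108, 178 and 266 CPM in WT (1.92 ± 0.30, adjusted p = 0.0067), and DDIT3, the factor CHOP (1.10 ± 0.18, adjusted p = 0.0070), were higher, and the 3 genes did not overlap. The 2 lower members were the disulfide isomerases PDIA4 (-0.45 ± 0.14, adjusted p = 0.066) and PDIA6 (-0.43 ± 0.14, adjusted p = 0.079), which both lost their calls with lengths as offsets (adjusted p = 0.12 each) and when any 1 library other than mutant 2 was left out, and the chaperone HSPA5 was at 0.31 ± 0.16 (adjusted p = 0.23). EIF2AK1, the heme-regulated eIF2 kinase of erythroid cells, had 799, 538 and 680.1 CPM in mutants and 233, 190.2 and 198 CPM in WT (1.70 ± 0.19, adjusted p = 0.0022). SESN2 counts in both this list and the p53 list (1.47 ± 0.20, adjusted p = 0.0041).

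Mitosis and spindle genes were lower in 12 of 24 cases and higher in 0 (median -0.77). TOP2A, which untangles chromosomes, had 74.1, 75.5 and 49.6 CPM in mutants and 153, 158 and 109.9 CPM in WT (-1.07 ± 0.21, adjusted p = 0.014). KIF11, the motor of spindle poles, had 19.8, 17.4 and 14.3 CPM in mutants and 33.6, 34.3 and 29.5 CPM in WT (-0.90 ± 0.17, adjusted p = 0.014), and the proliferation marker MKI67 was lower (-0.91 ± 0.23, adjusted p = 0.037). The count was 4 without WT 1 and 5 without WT 2, 8 without mutant 3, 17 without mutant 1, and 6 with transcript lengths as offsets, where TOP2A was no longer called (adjusted p = 0.22). DNA replication genes were lower in 3 of 25 cases, near the 9.75% lower over all genes. In that list 1 was higher, E2F2 (0.84 ± 0.18, adjusted p = 0.019), a cell cycle factor. The inhibitor CDKN1B, p27, was higher at 101, 77.5 and 74.8 CPM in mutants and 38.2, 44.5 and 44.2 CPM in WT (1.00 ± 0.16, adjusted p = 0.0072). Oxidative phosphorylation subunits were lower in 2 of 34 cases and higher in 0.

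Ribosomal protein genes shifted by little. Of 76, 15 were higher and 0 lower (median 0.35), with RPL18 at 398, 384 and 488 CPM in mutants and 200.2, 224 and 214 CPM in WT (0.99 ± 0.15, adjusted p = 0.0064) and RPS19, mutated in Diamond-Blackfan anemia, at 0.57 ± 0.14 (adjusted p = 0.033). This count was not stable, at 1 without WT 2, 3 without WT 3, 4 without WT 1 or without mutant 3, and 26 without mutant 1. Immediate early genes, which respond within minutes to signals and to handling, were lower in 6 of 17 cases and higher in 0 (median -0.36), KLF2 among them (-1.24 ± 0.21, adjusted p = 0.0085).

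The targeted gene was not called. USB1 had 40.1, 59.9 and 63.9 CPM in mutants and 59.5, 66.4 and 67.5 CPM in WT (-0.24 ± 0.19, adjusted p = 0.43), and mutants 2 and 3 overlapped WT 1. USB1 lies at chr16:57999546-58021618 on the plus strand of GRCh38, and a frameshift need not change the level of a transcript, so this does not test the genotype label. Of 18 enzymes and partners of RNA tailing and tail removal, 1 was higher and 0 lower: MEPCE, which caps 7SK RNA (0.51 ± 0.16, adjusted p = 0.077). Of 16 microRNA biogenesis genes, 2 were higher and 3 lower, with DICER1, which cuts microRNA precursors, at -0.51 ± 0.17 (adjusted p = 0.086) and the Argonaute AGO4 at -0.60 ± 0.17 (adjusted p = 0.051). Over all genes, 10.8% were higher and 9.75% lower, and the counts of these short lists are not set apart from those shares. LSM8, part of the ring that binds the U6 end, was the 1 of 14 Lsm and Sm genes called (0.49 ± 0.15, adjusted p = 0.063). With transcript lengths as offsets, MEPCE, DICER1, AGO4 and LSM8 lost their calls (adjusted p 0.16, 0.25, 0.12 and 0.25).

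The largest differences among genes called over 2-fold that averaged 5 CPM or more and did not overlap lay partly outside the lists. Highest of these was ADAMTS7, a secreted metalloproteinase, with 30.3, 27.8 and 41.8 CPM in mutants and 1.56, 0.748 and 0.610 CPM in WT (5.15 ± 0.35, adjusted p = 0.00094). HS3ST4, which sulfates heparan chains (4.94 ± 0.63, adjusted p = 0.0036), and WNT11, a secreted Wnt ligand (4.91 ± 0.56, adjusted p = 0.0025), came next. FBLN2, a matrix protein, had 49.1, 53.1 and 86.0 CPM in mutants and 4.09, 1.40 and 2.74 CPM in WT (4.59 ± 0.39, adjusted p = 0.0013). ADCYAP1, the neuropeptide PACAP, had 18.5, 49.2 and 77.4 CPM in mutants and 1.44, 2.20 and 4.57 CPM in WT (4.13 ± 0.57, adjusted p = 0.0046). C3orf80 and the matrix gene FREM1 completed the 12 with the mast cell genes above. Mutant 3 was the highest library for ADAMTS7, WNT11, FBLN2 and ADCYAP1.

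At the low end, ENTREP3, on the long arm of chromosome 1, was at 0 in all mutants and at 8.79, 11.4 and 10.1 CPM in WT, at least 89.8-fold lower in mutants when the group at 0 is set to a total of 3 counts. FLOT1, a membrane scaffold, had 9.43, 7.40 and 10.4 CPM in mutants and 67.9, 55.5 and 31.1 CPM in WT (-2.53 ± 0.30, adjusted p = 0.0030). The values of ENTREP3, FLOT1 and SLC27A3 are sums over transcripts as the quantification assigned them, and that assignment was not tested. The defensin DEFA1, a near-identical copy of DEFA3, and the histone H4C15 were also among the 12 lowest, with calls that DESeq2 did not make (adjusted p = 0.29 and 0.16), and S100A12, a calgranulin, had 0.292, 5.57 and 8.57 CPM in mutants and 31.8, 27.0 and 101 CPM in WT (-3.62 ± 0.83, adjusted p = 0.026).

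Among genes outside all lists, those with the smallest adjusted p once the balance score was in the fit were ADCYAP1, AUTS2, HOXB3, LIF, KCNN3 and BACE2 on the higher side. By genotype alone BACE2 was called (adjusted p = 0.070), but not without WT 1, WT 2, WT 3, mutant 2 or mutant 3 (from 0.11 to 0.18), nor by limma-voom (0.11) or with lengths as offsets (0.19). HOXB3, a homeobox factor of stem and progenitor cells, had 13.1, 23.6 and 22.3 CPM in mutants and 1.44, 1.80 and 2.34 CPM in WT (3.39 ± 0.32, adjusted p = 0.0015, and 4.18 with the score). LIF, an IL-6 family cytokine, had 24.2, 55.4 and 65.2 CPM in mutants and 8.67, 12.5 and 19.3 CPM in WT (1.82 ± 0.39, adjusted p = 0.021, and 3.15 with the score). Both were lowest in mutant 1 and free of overlap. On the lower side were TYMP, SLC27A3, FLOT1, ASPM and ENTREP3. TYMP, thymidine phosphorylase, had 145, 134 and 136 CPM in mutants and 368, 348 and 325 CPM in WT (-1.33 ± 0.13, adjusted p = 0.0019, and -1.47 with the score). SLC27A3 and ASPM, like KCNN3 and ENTREP3, lie on the long arm of chromosome 1.

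Genes of that arm were lower as a set of positions. Of 678 tested there, 192 (28.3%) were lower and 48 higher, beside 9.75% lower over all genes, and their median was -0.31, against 0.00 for the other genes. This moves with S100A8, S100A9, S100A12, CHI3L1 and CENPF among the listed genes, and its part in their differences was not tested. No interferon-stimulated gene tested lies on it.

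Markers of cells outside the blood were low or mixed. In the stroma and matrix list 4 of 19 were higher and 1 lower (median 0.96). COL6A3, a collagen chain, had 21.9, 19.3 and 26.2 CPM in mutants and 2.05, 3.94 and 4.98 CPM in WT (2.59 ± 0.31, adjusted p = 0.0030), and COL3A1 had 6.90, 16.1 and 54.8 CPM in mutants and 0.241, 0.599 and 7.73 CPM in WT (3.18 ± 1.08, adjusted p = 0.089), with overlap and no call by DESeq2 (0.14) or without WT 1, WT 2, mutant 2 or mutant 3. The defining stroma markers COL1A1, COL3A1 and DCN summed to 3.54 to 21.1 TPM in mutants and 3.26 to 5.89 TPM in WT, mutant 3 being the highest. The simple-epithelium keratins KRT18 (2.45 ± 0.30, adjusted p = 0.0032) and KRT19 (2.72 ± 0.31, adjusted p = 0.0025) were higher, while the defining epithelial markers EPCAM and CDH1 summed to 3.73 to 7.83 TPM in mutants and 4.36 to 11.5 TPM in WT. Endothelial genes were lower in 4 of 10 cases and higher in 1. The stem cell marker CD34 had 18.2, 12.2 and 7.27 CPM in mutants and 14.2, 13.4 and 13.5 CPM in WT (adjusted p = 0.86).

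The same contrast in D16 progenitors, 3 libraries per genotype of the same lines, showed which lists also differed earlier. Of 13516 genes tested on both days, 1708 (12.6%) were higher and 2080 (15.4%) lower at D16. The neutrophil lists were lower at D16 in 11 of 15 azurophil, 13 of 15 specific and gelatinase granule and 16 of 19 maturation genes, with medians of -1.16, -1.40 and -1.36. Red cell membrane genes were higher in 11 of 22 cases at D16 and lower in 0 (median 0.55). The other erythroid lists were mixed or mostly not called on that day. Of 18 heme genes 2 were higher and 4 lower (median 0.04). Of 17 erythroid factors 4 were higher and 4 lower (median 0.07). Of 9 globins tested at D16, 1 was higher and 0 lower (median 0.65). A fit over all 18 libraries tested whether the genotype difference at D30 differed from that at D16. Of 16829 genes, 3447 (20.5%) did, 1733 (10.3%) in the positive and 1714 (10.2%) in the negative direction. Of the interferon-stimulated genes, 18 of 22 differed between days, all towards lower at D30, and their median at D16 was 0.06. MX1 had 4.30, 8.32 and 9.13 CPM in D16 mutants and 7.58, 7.03 and 9.21 CPM in D16 WT, so at D16 the genotypes overlapped. For MX1 the D30 mutants were near that level. IFI6 had 10.5, 12.01 and 12.5 CPM in D16 mutants and 12.9, 11.9 and 15.4 CPM in D16 WT. Its D30 mutants lay above that level, at 29.1, 63.4 and 67.2 CPM on the scale of the fit over 18 libraries. On that scale OAS3 and the interferon-induced PARP14 were also higher in D30 than in D16 mutants, while USP18 was lower. Mast cell genes differed in 11 of 15 cases towards higher at D30 and in 1 towards lower. Of the p53 targets, 13 of 24 were more positive at D30 and 2 more negative, and of the mitosis genes 21 of 24 were more negative. GDF15 was higher already at D16 (1.78, adjusted p = 0.0072) and KLF1 as well (1.34, adjusted p = 0.012). Monocyte and macrophage genes differed in direction between the days, with 14 of 33 higher and 3 lower at D16 and 19 of 35 more negative at D30, among them LPL (1.73, adjusted p = 0.0059 at D16). Eosinophil genes were lower in 11 of 12 cases at D16 (median -1.89), and 11 of 12 were more positive at D30. CHI3L1 was lower on both days (-2.78 at D16, adjusted p = 6.6e-05), and for neither CHI3L1 nor KLF1 was the difference between days called (adjusted p = 0.16 and 1.00).

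**Figure D5:**
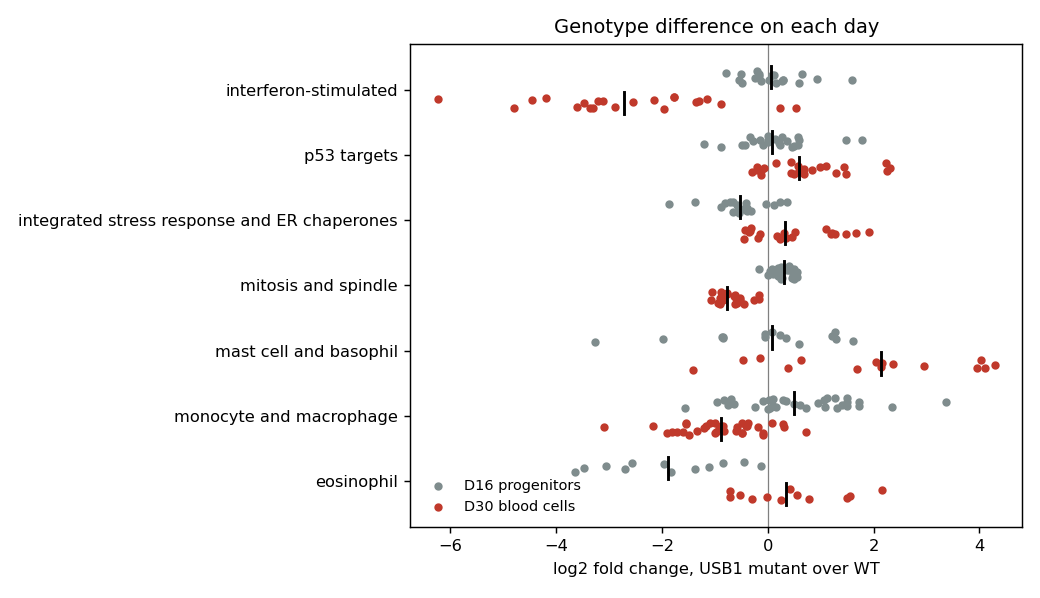
Log2 fold change of mutant over WT for members of 7 lists in D16 progenitors (grey) and D30 blood cells (red), with the median of each as a black line. Interferon-stimulated and mitosis genes lie near or above 0 at D16 and below it at D30, and mast cell genes move towards higher values.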

How the data were processed

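RNA-seq libraries were made from total RNA with a directional kit. Per the submitters' processing notes, the authors trimmed reads with Trimmomatic 0.36, quantified transcripts with Salmon 0.13.1 on GRCh38 and tested genes with DESeq2. Whether quantification used strand is not given in the sources used here. The authors deposited expected counts per gene, which were rounded to whole numbers here, TPM values, and average transcript lengths, used as offsets in 1 alternative. The deposited TPM served for shares and markers.

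Symbols and positions came from GENCODE v44 (GRCh38), which matched 35051 of 35168 identifiers. The 117 others held 0.233% of D30 counts. Columns of unlisted samples numbered 0. The D30 libraries held 4125102 to 19368903 counts.

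Mutant and WT libraries were tested against each other in edgeR 4.0.16 and R 4.3.3 (filterByExpr, TMM scaling, glmQLFit, glmQLFTest, genotype as the only term) on the 6 D30 libraries, checked on simulated counts. Standard errors were derived from the F statistic. Single values were tested with the exact permutation test. The interaction with D16 came from a fit over 18 libraries. Of 677 genes in 33 lists, 675 matched. Some genes that the naming rule selects are not reported here. The members and lists were chosen with earlier results of these data known.

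Named genes were USB1, the 12 highest and 12 lowest over 2-fold with at least 5 CPM and no overlap, up to 4 called genes per list (2 where none was called), the 10 globins, a fixed set of regulators, up to 6 per direction outside the lists with the balance score, and up to 6 per direction for the interaction. Other genes given with values were chosen after their values were seen: SPTB, ALAS2, CTSG, CSF3R, GFI1, CPA3, MS4A2, FCER1A, PRG2, EPX, STAT2, RSAD2, CMPK2, TP53I3, PDIA4, PDIA6, HSPA5 and the genes at 0 in 1 genotype. Other settings tried were scaling by RLE, or with globins and the top 20 genes left out, 2 other filters, DESeq2 1.42.0, limma-voom (limma 3.58.1), the fit over 18 libraries, lengths as offsets, an adjusted p under 0.05, a replicate block, each library left out, and the balance or globin share as covariate. Leaving the long arm of chromosome 1 out, and list counts with a library left out, were added after seeing the data. Floors and bounds cover counting error only.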

Additional observations from a re-analysis of the deposited data

Results flagged for a closer look

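The genotype difference at D30 differed from that at D16 for the following genes, by edgeR's test of the interaction over 18 libraries (values are the D30 minus the D16 log2 fold change of mutant over WT). In the positive direction these were ADAMTS7 (3.73), TESPA1 (3.06), FAM117A (2.92), SLC45A3 (2.75), EIF2AK1 (1.95) and NUDT4 (1.93). FAM117A had 454, 237 and 368 CPM in D30 mutants and 116, 102 and 113 CPM in D30 WT, and at D16 it averaged 38.9 CPM in mutants and 92.0 CPM in WT, so its direction turned between the days. SLC45A3, on the long arm of chromosome 1, likewise averaged 284 CPM in D16 mutants and 528 CPM in D16 WT but had 238, 339.8 and 492 CPM in D30 mutants and 87.4, 108 and 98.1 CPM in D30 WT.

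In the negative direction they were ENTREP3 (fitted -9.47, with all D30 mutants at 0, which is no bound), MX1 (-4.34), USP18 (-3.86), OAS3 (-3.73), IFI6 (-3.03) and PARP14 (-2.21). Of these 6, all but ENTREP3 are interferon-induced. PARP14 averaged 44.8 CPM in D16 mutants and 23.5 CPM in D16 WT, against 111, 143 and 99.5 CPM in D30 mutants and 272, 339 and 258 CPM in D30 WT. ENTREP3 averaged 13.2 CPM in D16 mutants and 18.5 CPM in D16 WT, so its transcripts were counted in mutant cells on the earlier day.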

How the results depend on the processing

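The 2933 calls became 4892 (2539 higher, 2353 lower) in the fit over 18 libraries and 1801 (1002 higher, 799 lower) at an adjusted p under 0.05, and lengths as offsets left 894 lower. With the balance score there were 937 (592 higher, 345 lower, 742 over 2-fold). By list it left 6 globins, 4 membrane, 0 heme and 2 erythroid factor genes, 5 stress response and 8 ribosomal genes higher, and 1 azurophil, 4 specific granule, 0 maturation, 8 monocyte and 0 immediate early genes lower. With the globin share as covariate, all these counts and those of the mast cell, interferon-stimulated, p53 and mitosis lists were 0. The fit over 18 libraries gave 11 heme, 21 mitosis and 27 ribosomal calls, lengths as offsets 6 mitosis and 8 ribosomal calls, and the stricter threshold 3 azurophil and 5 ribosomal calls. The globin share differed by 16.6 percentage points on the TPM scale. The cause of these shifts was not tested beyond the fewer or further samples and terms of each fit.

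With 1 library left out, calls ranged from 1452 (without WT 3) to 2958, with 824 to 1625 higher, 605 to 1333 lower and 941 to 1527 over 2-fold. List calls ranged over 6 to 9 globins, 7 to 15 membrane, 4 to 9 heme, 6 to 10 erythroid factor, 1 to 8 azurophil, 7 to 10 specific granule, 2 to 9 maturation, 14 to 18 monocyte, 9 to 11 mast cell, 10 to 14 p53, 7 to 8 stress response, 4 to 17 mitosis, 1 to 26 ribosomal and 4 to 5 immediate early genes. The differences in globin share ranged from 4.49 to 6.196 percentage points, in HBE1 share from 13.7 to 20.8, in fetal share from -19.9 to -13.1, in adult share from -0.965 to -0.525 and in HBZ share from -4.47 to -2.43, the granule ratio from -0.677 to -0.247, the eosinophil ratio from 1.13 to 1.74 and the balance from 1.09 to 2.03.

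Uncalled genes changed sign. RUNX1 came to 0.0035 with RLE scaling, 0.0092 with scaling without globins, 0.0074 with the 5 CPM filter, and between -0.050 and 0.058 with a library left out (positive without WT 2, and 0.0017 without mutant 1). RUNX2 came to -0.31 without WT 1, 0.22 without WT 2, 0.057 without WT 3 and 0.0071 without mutant 2, CD34 ranged from -0.44 to 0.15 (without mutant 3), FCER1A from -1.88 to 0.010 (without WT 1), and PRG2 from -0.21 (without WT 1), with -0.12 without mutant 3, to 0.61.

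Same-numbered libraries did not deviate together in every pair (r = 0.16, -0.06 and 0.32), and differently numbered ones had r from -0.40 to 0.25. The balance score fell from library 1 to library 3 in both genotypes. The labels do not state a pairing and these values do not decide it, so the main fit did not pair the libraries. With a replicate block 3189 genes were called (1627 higher, 1562 lower, 1307 over 2-fold), and RUNX2 came to 0.048. With the block CD14 (adjusted p = 0.023), SPTB (0.061), CEBPE (0.065), CD80 (0.086) and SPI1 (0.094) became called, and PDIA6 (0.1002) and KLRD1 (0.12) lost their calls.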

Other observations

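Some genes behaved as if present in only 1 genotype. ENTREP3, OLFM4 and the readthrough gene FAM47E-STBD1 were at 0 in all 3 mutants, and CTSO, a lysosomal protease, LRTM2 and the readthrough gene CHURC1-FNTB were at 0 in all 3 WT libraries. CTSO had 1.65, 2.79 and 2.86 CPM in mutants and 0 in WT, at least 31.0-fold higher in mutants when WT is set to a total of 3 counts. SLC27A3, on the long arm of chromosome 1, was fitted at -10.78 at D16 and at -1.57 ± 0.25 at D30, as a sum over transcripts whose assignment was not tested. Readthrough genes share exons with their neighbours and are uncertain.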
